A study of Mus musculus with 22 samples.

Results

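The genes described here are 9 that start, brake or dissolve blood clots in the lung: coagulation factor III (F3, tissue factor), factors VII (F7) and X (F10), thrombomodulin (Thbd), the endothelial protein C receptor (Procr), urokinase (Plau), its receptor (Plaur), tissue plasminogen activator (Plat) and thrombospondin 1 (Thbs1). They were found by matching the RefSeq accession that the array gives for each probe to the mouse gene, which named 12 probes, out of 55681 probes and 20018 named genes in all. Lung RNA came from 22 female C57BL/6 mice, aged 8 weeks at the start. Mitsui7, a multiwalled carbon nanotube (MWCNT), was put into the trachea once, at 18 µg (6 mice), 54 µg (5 mice) or 162 µg (6 mice), and 5 control mice received only the vehicle, saline with bronchoalveolar lavage fluid. The right lung was taken 24 hours later, after anaesthesia that every mouse received. Each lung RNA was labelled with Cy5 and hybridised against Cy3-labelled reference RNA pooled from 11 mouse cell lines, so every value is lung over that reference, as a log2 ratio. Ratios of different probes are not levels that can be set against each other. In whole lung, fewer cells of a type and less RNA per cell cannot be told apart.

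Blood clotting begins when tissue factor, a membrane receptor that blood normally does not meet, binds factor VII. The complex activates factor X, which in turn makes thrombin, and thrombin turns fibrinogen into fibrin. Thrombomodulin and the protein C receptor on endothelial cells redirect thrombin to switch the cascade off. Urokinase and tissue plasminogen activator turn plasminogen into plasmin, which dissolves fibrin.

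The 22 arrays had 52.1% to 83.5% of their probes above the negative controls, and no spot was marked as saturated. They lay on 7 slides, each scanned on its own day, and 2 of the slides held no control: their 6 arrays had 52.1% to 70.1% of probes above the negative controls, against 61.8% to 83.5% on the other 16. Lung identity was plain in the markers, with the 6 type II alveolar genes at a mean log2 ratio of 5.35 to 5.62 in the 4 groups and the 9 endothelial genes at 3.84 to 3.95. In the 162 µg group, 2 mice (replicates 1 and 2) stood apart in liver genes: albumin (Alb) was at 3.77 and 3.45 in them and between -0.18 and 0.78 in the other 4. Apolipoprotein A-II (Apoa2) did not set them apart, at 1.63 and 1.16 against 0.32 to 1.63. High Alb was not confined to the 162 µg group. It was 2.80 and 2.59 in 18 µg replicates 2 and 5, 2.12 in 54 µg replicate 2 and 1.82 in control replicate 4. These mice were left out only singly. The calls of clotting and fibrinolysis genes at 162 µg are given with and without replicates 1 and 2 of that dose, named below as the 2 mice high in liver genes.

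The RefSeq promoter table (build GRCm38.p6) held a window for 5 of the 9 genes, F3, F7, F10, Procr and Plaur. The 250 bases before the annotated start are shown for F3 and Plaur, whose RNA rose at the top dose, and for Procr, whose RNA gave no call at any dose. All 3 lie on the plus strand, at chr3:121723287-121723536 for F3, chr7:24462233-24462482 for Plaur and chr2:155750967-155751216 for Procr. Capitals mark the AP-1 motif, TGANTCA, which reads the same on both strands.
F3: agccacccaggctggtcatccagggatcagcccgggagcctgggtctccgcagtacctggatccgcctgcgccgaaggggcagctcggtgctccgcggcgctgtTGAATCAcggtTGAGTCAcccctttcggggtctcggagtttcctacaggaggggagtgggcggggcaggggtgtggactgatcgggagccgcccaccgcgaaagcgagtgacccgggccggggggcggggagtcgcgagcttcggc
Plaur: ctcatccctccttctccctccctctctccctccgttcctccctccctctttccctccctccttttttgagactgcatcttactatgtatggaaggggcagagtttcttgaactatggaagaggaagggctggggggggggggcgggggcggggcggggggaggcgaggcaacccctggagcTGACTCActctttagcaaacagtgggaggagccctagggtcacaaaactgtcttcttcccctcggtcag
Procr: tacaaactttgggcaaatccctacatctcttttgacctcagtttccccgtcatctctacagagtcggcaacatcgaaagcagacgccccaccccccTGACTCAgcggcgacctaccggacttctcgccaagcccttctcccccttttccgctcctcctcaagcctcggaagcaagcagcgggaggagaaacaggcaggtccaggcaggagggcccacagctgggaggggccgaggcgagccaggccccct
The F3 window held 2 matches, 146 and 135 bases before the start, and the windows of Plaur and Procr held 1 each, 69 and 154 bases before it. Those of F7 and F10 held none. Of 32817 promoter windows of this length, 6.75% held the motif. The GC box, GGGCGG on either strand, was matched at 3 places in F3 and 3 in Plaur, some of which overlap by 1 base in Plaur, and in none of the other windows (32.7% of all windows). TATAAA on either strand was in none of the 5 windows (12.4% of all). Matches of letters describe these windows and show neither binding nor a cause.

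Of the 9 genes, tissue factor, the urokinase receptor and tissue plasminogen activator were higher at 162 µg than in controls by the criteria used, an adjusted p of at most 0.05 in limma and a change of at least 1.5-fold on the brightest probe. That is 3 of 9 against 6.84% of 16436 genes above background called in either direction, and 3.32% called higher. Without the 2 mice high in liver genes, F3 and Plat were called. Without the 2 slides that hold no control, an alternative chosen after seeing the data like the last, 5 were called, thrombomodulin (lower) and thrombospondin 1 being added. The share of all genes called was not counted under these 2 alternatives, so their counts have no share to be read against. At 18 µg no member was called (2.06% of genes above background), and at 54 µg none (0.353%), although 5 of 9 had an unadjusted p under 0.05 at each, against 22.3% and 13.8% of genes. At 162 µg this number was 6 of 9, against 28.8%. The 3 doses share the same 5 controls. From the lowest to the highest dose the median over the 9 genes, as a log2 fold change, came to 0.49, 0.54 and 0.56, while that of all genes above background was -0.02, -0.01 and -0.0074. All 9 genes passed the filter on dim probes.

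**Figure D1:**
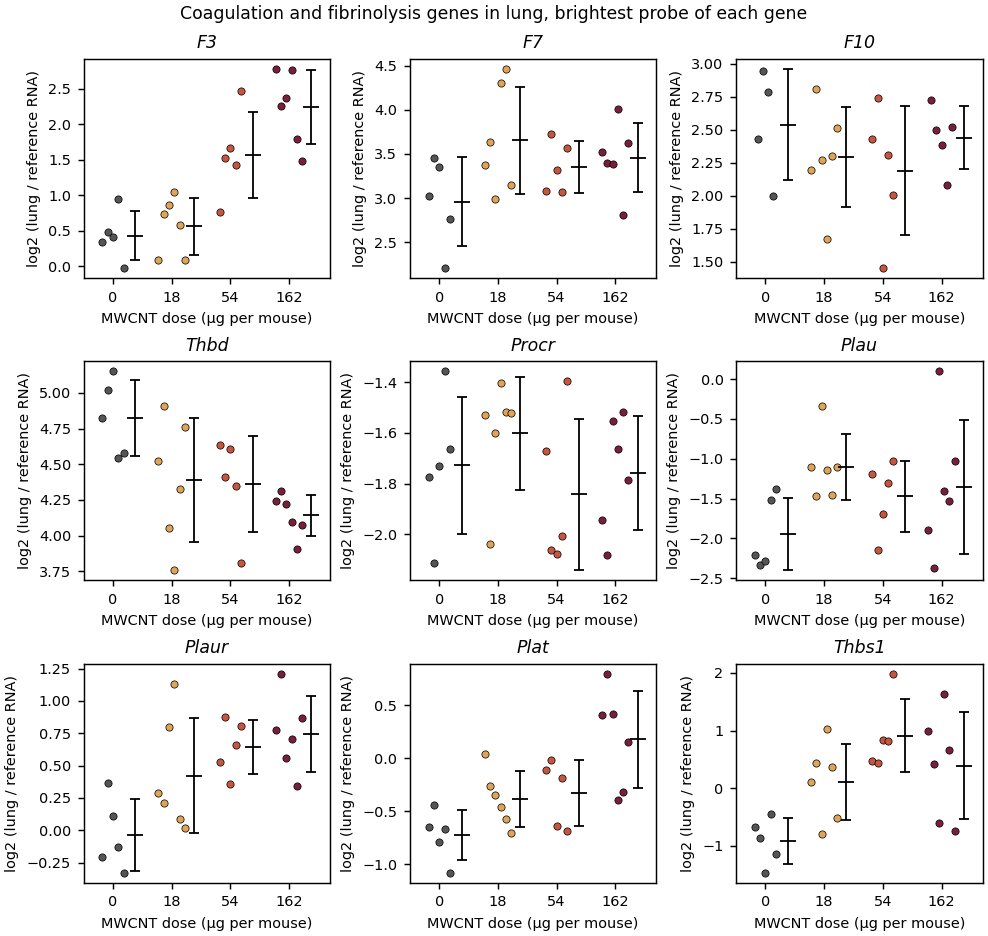
Each panel shows 1 gene on its brightest probe, with a point for each mouse, the dose in µg on the x axis and the log2 ratio of lung to reference RNA on the y axis (scales differ between panels). Bars beside the points give the mean and SD of a group. All 6 mice of 162 µg sit above all controls for F3 and Plat and below all controls for Thbd, and the F10 panel lacks 1 control and 1 mouse of 162 µg whose spots were marked as outliers.

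Tissue factor, the starter of the cascade, changed most among the genes called. On the brighter of its 2 probes the 5 controls had log2 ratios of -0.02, 0.35, 0.41, 0.48 and 0.94. At 18 µg the lowest, median and highest mouse had 0.08, 0.66 and 1.05, and at 162 µg 1.48, 2.32 and 2.78. The 5 mice of 54 µg had 0.77, 1.42, 1.52, 1.66 and 2.47. The 18 µg mice thus overlapped the controls, 4 of 5 mice at 54 µg were above every control, and so were 6 of 6 at 162 µg. The log2 fold change against controls was 0.08 at 18 µg (SE 0.24, adjusted p = 0.92 in limma), 1.21 at 54 µg (SE 0.25, adjusted p = 0.0679) and 1.68 at 162 µg (SE 0.24, adjusted p = 0.000632). At 162 µg the change within the 4 slides that hold both groups ran from 1.43 to 2.30. It was 1.46 without the 2 mice high in liver genes (adjusted p = 0.0226).

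The dimmer F3 probe gave 0.31, 1.15 and 1.63 at the 3 doses and passed at 54 µg too (adjusted p = 0.0332 in limma), so whether tissue factor is called at 54 µg depends on the probe. Both probes followed each other over the 22 arrays, with a Pearson r of 0.963, and of 0.813 once dose and slide were removed. The brighter probe also passed at 54 µg when the mouse 54 µg replicate 3 (log2 fold change 1.32) or 54 µg replicate 5 (0.95) was left out. Between doses, F3 was the member called at 162 µg over 18 µg, 1 of 9 against 4.98% of genes, with a log2 difference of 1.60 (SE 0.22, adjusted p = 0.00066). The steps from 18 to 54 µg (1.13, adjusted p = 0.106) and from 54 to 162 µg (0.47, adjusted p = 0.69) did not pass. Over all 9 genes no member was called at 54 µg over 18 µg (0.0304% of genes) or at 162 µg over 54 µg (0% of genes), and 2 and 1 had an unadjusted p under 0.05.

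Factors VII and X, the enzymes that tissue factor works with and through, are neighbouring genes on chromosome 8 and are made mainly in liver. The brighter F7 probe had log2 ratios between 2.21 and 3.45 in the control mice. The ranges were 2.99 to 4.46 for 18 µg, 3.06 to 3.73 for 54 µg and 2.81 to 4.01 for 162 µg, and all groups overlapped. Its log2 fold change was 0.65 at 18 µg (SE 0.24, adjusted p = 0.189 in limma), 0.24 at 54 µg and 0.39 at 162 µg, and the dimmer probe gave 0.76, 0.30 and 0.43. The 2 probes of F10 disagreed. On the dimmer one the ratio was 2.36 to 3.67 in controls and 3.07 to 4.93 at 18 µg, a log2 fold change of 0.98 (SE 0.33, adjusted p = 0.146), followed by 0.63 at 54 µg and 0.57 at 162 µg. The brighter one, by intensity the 5th of all 55681 probes, gave -0.14, -0.24 and 0.02, and the Pearson r between them was -0.148 over the 20 arrays that hold both. Which of them reads F10 RNA was not tested, since the probe sequences were not used here.

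Thrombomodulin, the endothelial receptor that turns thrombin into an anticoagulant, was the member whose values lay below those of controls. The controls had log2 ratios of 4.54, 4.58, 4.82, 5.02 and 5.15. The lowest, median and highest were 3.76, 4.42 and 4.91 at 18 µg and 3.91, 4.16 and 4.31 at 162 µg, and the 54 µg mice had 3.81, 4.35, 4.41, 4.61 and 4.64. Every mouse of 162 µg was below every control (not counted over all genes), as were 4 of 6 at 18 µg and 3 of 5 at 54 µg. The log2 fold change was -0.35 at 18 µg (SE 0.18, adjusted p = 0.366 in limma), -0.39 at 54 µg (SE 0.19, adjusted p = 0.602) and -0.60 at 162 µg (SE 0.18, adjusted p = 0.0516), so no dose passed. Within the 4 slides shared with controls it lay between -0.84 and -0.32 at 162 µg. It passed at 162 µg without the 2 slides that hold no control (-0.64, adjusted p = 0.00718), and also without 18 µg replicate 4 (-0.66), 54 µg replicate 5 (-0.65) or 162 µg replicate 3 (-0.69). Of the 18 alternatives other than single mice, it passed at 162 µg in 7, the one without those slides included. Without the 2 mice high in liver genes it was -0.50 (adjusted p = 0.33). Procr, which presents protein C to that complex, ranged from -2.11 to -1.36 in controls and from -2.08 to -1.52 at 162 µg. Its log2 fold change at 162 µg was -0.06, with a 95% interval of -0.32 to 0.20. The 9 endothelial marker genes, measured beside these receptors, had a mean log2 ratio per mouse of 3.28 to 4.31 in controls and 3.39 to 4.56 at 162 µg. None was called at 54 or 162 µg. At 18 µg 1 of 9 was called higher, Kdr (0.633% of genes above background were called higher), which was also called lower at 162 than at 18 µg. All 9 were above background.

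Among the plasminogen activators, Plat had the clearest change. The controls had log2 ratios of -1.08, -0.79, -0.67, -0.65 and -0.45, the 18 µg mice a lowest, median and highest of -0.71, -0.40 and 0.04, and the 162 µg mice -0.39, 0.28 and 0.80. At 54 µg the ratios were -0.69, -0.64, -0.19, -0.11 and -0.014. Again 6 of 6 mice at 162 µg were above every control, against 3 of 6 at 18 µg and 3 of 5 at 54 µg. F3 and Plat were the 2 of 9 genes in which all mice of 162 µg exceeded all controls, which held for 3.72% of genes above background. For Plat the fit gave a log2 fold change of 0.52 at 18 µg (SE 0.14, adjusted p = 0.0675 in limma), 0.60 at 54 µg (SE 0.15, adjusted p = 0.132) and 1.08 at 162 µg (SE 0.14, adjusted p = 0.000339), or 2.11-fold. Within slides it was 0.76 to 1.58 at 162 µg, and without the 2 mice high in liver genes it was 0.97 (adjusted p = 0.0127). The difference between 162 and 18 µg was 0.55 (SE 0.13, adjusted p = 0.0203), which is 1.47-fold and so under the 1.5-fold criterion.

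Plaur, the receptor that holds urokinase at the cell surface, gave a smaller change. Its control ratios were -0.33, -0.21, -0.13, 0.11 and 0.37, and those at 54 µg were 0.36, 0.53, 0.66, 0.81 and 0.87. The lowest, median and highest mouse had 0.015, 0.25 and 1.13 at 18 µg and 0.34, 0.74 and 1.21 at 162 µg. At 162 µg 5 of 6 mice were above every control, at 54 µg 4 of 5 and at 18 µg 2 of 6. Against controls the fit gave a log2 fold change of 0.49 at 18 µg (adjusted p = 0.194 in limma), 0.69 at 54 µg (adjusted p = 0.219) and 0.74 at 162 µg (SE 0.18, adjusted p = 0.0235). The last call was lost without control replicate 3, control replicate 4, control replicate 5, 162 µg replicate 1 or 162 µg replicate 2, with adjusted p up to 0.09, and it was lost without the 2 mice high in liver genes (0.65, adjusted p = 0.198).

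Urokinase itself was dim, with a Cy5 signal well above background on 4 of 5, 4 of 6, 4 of 5 and 3 of 6 arrays from control to 162 µg. Its log2 ratios were -2.33, -2.28, -2.21, -1.52 and -1.38 in controls and -2.14, -1.69, -1.30, -1.20 and -1.03 at 54 µg. The lowest, median and highest were -1.47, -1.13 and -0.335 at 18 µg and -2.37, -1.47 and 0.10 at 162 µg, where the highest mouse was not well above background. The log2 fold change was 0.69 (SE 0.19, adjusted p = 0.0843 in limma), 0.54 (adjusted p = 0.435) and 0.56 (adjusted p = 0.111) at the 3 doses, and at 162 µg it passed only without control replicate 5 (0.73, adjusted p = 0.0453), among the 22 mice left out in turn. Between 162 and 18 µg Plau differed by -0.13 on the log2 scale, with a 95% interval of -0.52 to 0.25.

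Thrombospondin 1, a matrix and platelet granule protein that activates TGF-beta and binds plasminogen, had wide groups, with an SD of 0.92 at 162 µg. Controls had log2 ratios of -1.47, -1.15, -0.86, -0.68 and -0.44, and the 54 µg mice 0.43, 0.46, 0.82, 0.84 and 1.98. At 18 µg the lowest, median and highest were -0.79, 0.24 and 1.03, and at 162 µg -0.75, 0.54 and 1.64. All 5 mice at 54 µg were above every control, against 4 of 6 mice at each of the other doses. On the brightest probe this held at 54 µg for 1 of the 9 genes (1.51% of genes above background), and F3 showed it on its dimmer probe. The log2 fold change was 0.86 at 18 µg (SE 0.37, adjusted p = 0.272 in limma), 1.68 at 54 µg (SE 0.40, adjusted p = 0.113) and 1.19 at 162 µg (SE 0.37, adjusted p = 0.0697), so it did not pass on the fit used. Within the 3 slides shared with controls the change at 54 µg was 1.14 to 1.97, and at 162 µg it was above 0 in 3 of 4 slides. It passed at all 3 doses without 54 µg replicate 5 (1.00 at 18 µg, 1.30 at 54 µg and 1.33 at 162 µg), at 54 µg without 54 µg replicate 3 (1.91), and at 162 µg without control replicate 4 (1.53) or 162 µg replicate 6 (1.39). In the other direction, it was 0.89 at 162 µg without the 2 mice high in liver genes (SE 0.45, adjusted p = 0.435 in limma). Without the 2 slides that hold no control it was 1.47 at 54 µg (adjusted p = 0.0351) and 1.31 at 162 µg (adjusted p = 0.00734). Platelet markers beside it, 7 of 7 above background, had a mean log2 ratio per mouse between 0.66 and 2.26 in controls, against 0.68 to 1.44 for 54 µg and 0.39 to 1.51 for 162 µg, and 0 of 7 were called at any dose.

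**Figure D2:**
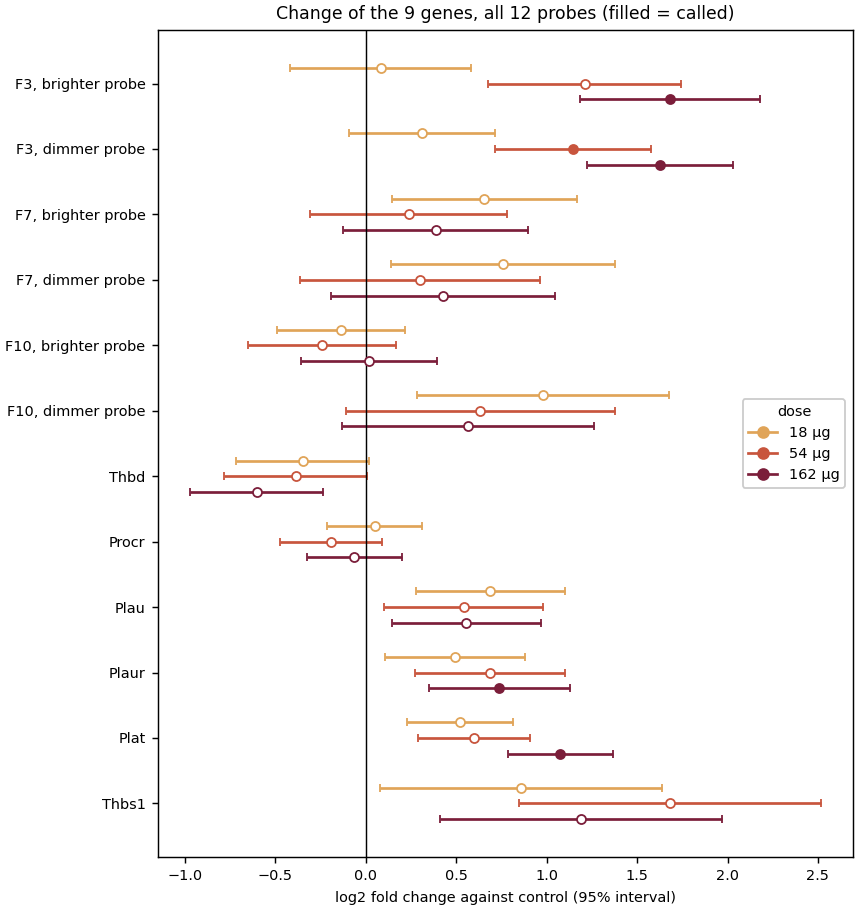
Log2 fold change against the 5 controls (x axis) for all 12 probes of the 9 genes (y axis), with 95% intervals from limma, one colour per dose and filled points for calls. F3 lies at 1.68 and 1.63 at 162 µg on its 2 probes, Thbd is left of 0 at each dose, and the 2 probes of F10 lie apart.

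Some markers of inflammatory and other cells were called at 162 µg, where F3, Plaur and Plat were called, and some also at the doses where no member was. Of all genes above background, 6.84% were called at 162 µg, 0.353% at 54 µg and 2.06% at 18 µg. The type II alveolar, mesothelial, fibroblast, smooth muscle, cardiac muscle and red cell lists gave no call at 162 µg. Nor did the platelet, endothelial and liver lists. Of 8 neutrophil markers, 1 was called at 162 µg, the decoy receptor Il1r2 (log2 fold change 2.36, adjusted p = 0.00751 in limma), and the list's mean log2 ratio was 1.66 to 4.02 in controls and 2.10 to 4.08 at 162 µg. Among 7 monocyte and recruited macrophage markers, 2 were called higher at 162 µg, Arg1 (1.76) and Spp1 (0.80), with a list mean of -0.04 to 0.78 in controls and 0.28 to 0.97 at 162 µg. Arg1 was also called at 18 µg (2.06) and 54 µg (2.92). Of 8 alveolar macrophage markers 1 was called at 162 µg, the scavenger receptor Marco (1.51), with means of 3.76 to 4.31 in controls and 3.82 to 5.03 at 162 µg. The alveolar macrophage gene Chil3 was called at 18 µg (1.73). Of 4 ciliated cell markers 1 was called lower at 162 µg, Rsph1 (-1.45), and their mean per mouse was 3.50 to 3.95 in controls, 1.32 to 3.99 at 18 µg and 1.26 to 3.43 at 162 µg. Of 6 type I alveolar markers 1 was called higher at 162 µg, Pdpn (1.04), with means of 3.89 to 4.29 in controls and 4.19 to 4.65 at 162 µg. Of 2 club cell markers 1 was called lower, Cyp2f2 (-1.0045), with means of 7.27 to 8.51 and 6.80 to 8.23. Every marker matched in the lists with a call at 162 µg was above background. The part of the markers in the changes of F3, Plaur and Plat was not tested.

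**Figure D3:**
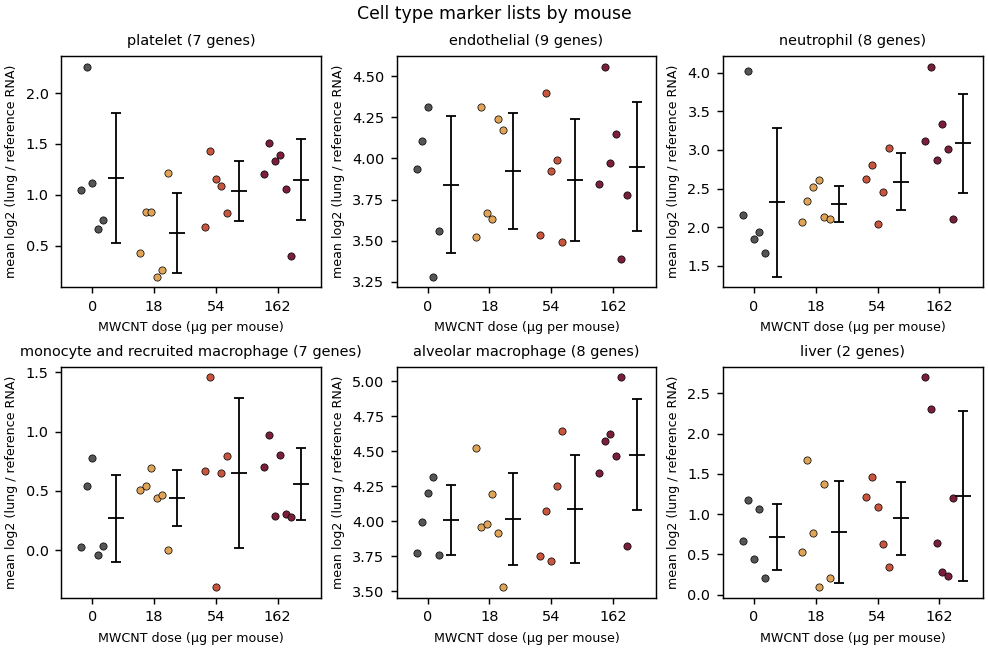
Mean log2 ratio of lung to reference RNA over each marker list (y axis) for every mouse by dose (x axis), with group mean and SD beside the points. Endothelial means overlap between groups, 1 control stands at 4.02 for neutrophil genes, and 2 mice of 162 µg stand at 2.70 and 2.31 for the 2 liver genes.

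Around these 9 genes, 49 other genes of clotting and fibrinolysis were listed, of which 41 were above background. At 162 µg 6 of the 41 were called (4 higher, 2 lower), at 54 µg 3 (2 higher, 1 lower) and at 18 µg 3 (1 higher, 2 lower), with a median log2 fold change of 0.07, 0.11 and 0.14. Of all genes above background, 6.84%, 0.353% and 2.06% were called at these doses. Clotting factors gave 2 of 13 called at 162 µg, anticoagulants 1 of 12, protease receptors 1 of 2 and thrombospondins with their receptors 1 of 5. Without the 2 mice high in liver genes, 5 were called at 162 µg, and none at 54 µg. The count at 18 µg fell to 1 or 0 without any 1 of 9 mice (control replicates 1, 2, 3 and 5, 18 µg replicates 1, 2, 4 and 5, and 54 µg replicate 2), and the count at 54 µg fell to 1 or 0 without any 1 of 7 (control replicates 1, 3, 4 and 5, 54 µg replicates 2 and 4, and 162 µg replicate 1).

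Fibrinogen gamma (Fgg), a chain of the clot's own protein, had the largest change of them, with control log2 ratios between 0.45 and 2.65, those of 54 µg between 2.18 and 4.23 and those of 162 µg between 2.53 and 6.14. It rose by 2.11 at 54 µg (SE 0.40, adjusted p = 0.0375 in limma) and by 3.12 at 162 µg (SE 0.37, adjusted p = 0.000224), or 8.70-fold. Fgg was dim in controls, with Cy5 signals of 84 to 364, and well above background on 4 of 5 arrays. The size of its rise is thus uncertain. Its 2 highest mice at 162 µg, 6.14 and 6.09, were the 2 mice high in liver genes, and without them the rise was 2.66 (adjusted p = 0.0114). Replicates 3 and 4 had 4.34 and 4.96. Replicates 5 and 6 had 2.80 and 2.53, near the highest control at 2.65. Fibrinogen beta (Fgb) behaved otherwise: the same 2 mice had 4.76 and 3.07 at 162 µg and the other 4 lay between 0.06 and 0.36, within the control range of 0.05 to 0.53, so that its log2 fold change of 1.51 (adjusted p = 0.0874) became 0.31 without them. Plasminogen (Plg) was not above background by the filter and was well above background on no control array. It exceeded the other mice in the same 2, at 2.12 and 0.93. The mean of all 6 mice at 162 µg was at least 1.11-fold over controls (adjusted p = 0.193 in limma). Fibrinogen alpha (Fga) gave 0.05 at 162 µg on its brighter probe and 0.52 on the other, with no call. The 2 liver markers above background, Alb and Apoa2, gave 0 of 2 calls at 162 µg, while Ttr, also listed, was not above background. The part of liver RNA in the fibrinogen and plasminogen values was not tested.

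Serpinb2, an inhibitor of urokinase, was called at 18 µg alone (0.86, adjusted p = 0.0328 in limma), with 0.51 and 0.47 at the higher doses. It was dim, well above background on 3 of 5 control arrays and 4 of 6 arrays of 18 µg. Tissue transglutaminase (Tgm2), which crosslinks proteins as factor XIII does, rose by 0.81 at 54 µg (adjusted p = 0.0276) and 0.89 at 162 µg (adjusted p = 0.000859), in both of its probes at 162 µg, and by 0.81 at that dose without the 2 mice high in liver genes (adjusted p = 0.0246).

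At 18 µg the thrombin receptor F2r gave -0.33. It was called higher at 162 µg, by 0.90 (SE 0.20, adjusted p = 0.0111 in limma), all 6 mice exceeding all controls (3.72% of genes above background). Without the 2 mice high in liver genes this call was lost (0.82, adjusted p = 0.126). Thbs3, a relative of Thbs1, fell by 0.98 at 54 µg (adjusted p = 0.0332) and by 1.03 at 162 µg (adjusted p = 0.00139), and both its probes were called at both doses. It was -1.08 at 162 µg without the 2 mice high in liver genes (adjusted p = 0.0222). Vkorc1, the vitamin K reductase on which factors VII and X depend, had 6 of 6 mice at 162 µg below all controls (not counted over all genes). It fell by 0.70 at that dose and was called (adjusted p = 0.00434 in limma). Without the 2 mice high in liver genes that call was lost (-0.50, adjusted p = 0.0823). Protein C (Proc) and plasma kallikrein (Klkb1) were called lower at 18 µg, by 0.95 (adjusted p = 0.0288 in limma) and 0.68 (adjusted p = 0.0493). Both were dim there, well above background on 3 of 6 and 4 of 6 arrays, against 5 of 5 controls each. The sizes of these falls are thus uncertain. At 162 µg Proc and Klkb1 gave -0.43 and -0.39. Without the 2 mice high in liver genes Proc was called lower at 162 µg too (-0.815, adjusted p = 0.0326), and Klkb1 gave -0.50 (adjusted p = 0.221). The inhibitor of the tissue factor complex, Tfpi, gave 0.05 at 162 µg, with a 95% interval of -0.19 to 0.29. The von Willebrand factor gene (Vwf) gave 0.19 and F13a1, the factor XIII subunit of platelets and macrophages, -0.18, with adjusted p of 0.772 and 0.91.

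**Figure D4:**
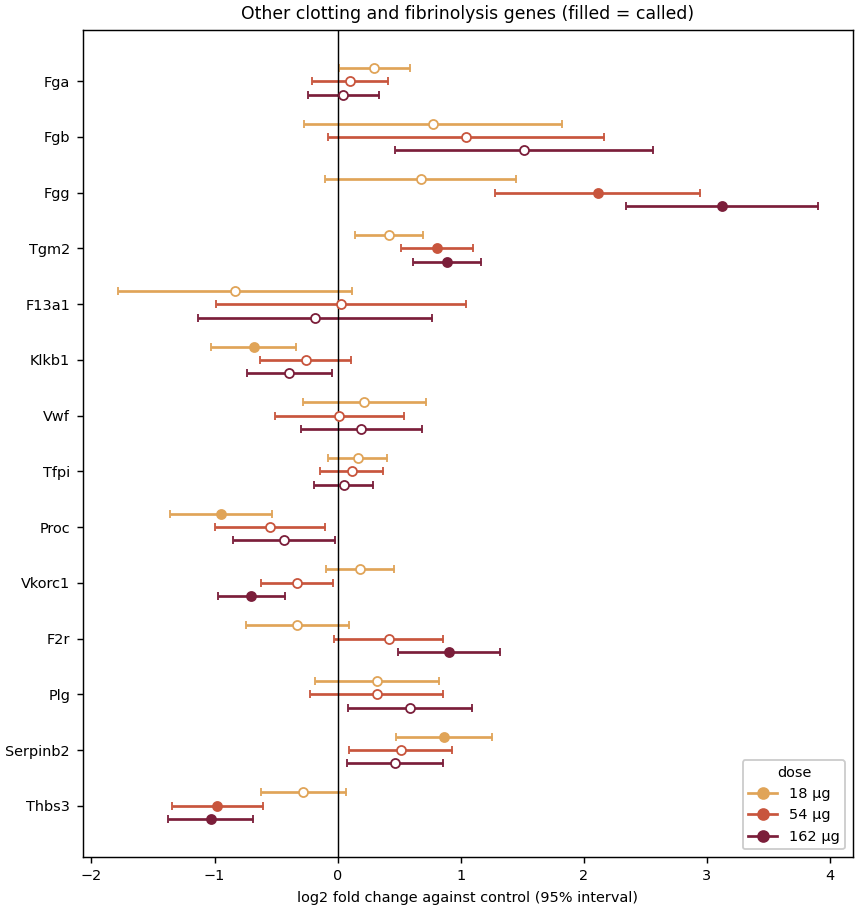
Log2 fold change against the 5 controls (x axis, 95% intervals from limma) at each dose for other named genes of clotting and fibrinolysis (y axis), on the brightest probe, filled where called. Fgg and F2r lie to the right at 3.12 and 0.90 for 162 µg, Thbs3 and Vkorc1 to the left at -1.03 and -0.70.

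For the 3 members called, the genes whose log2 ratios followed them most closely over the 22 arrays were sought among 14993 other named genes above background with a value on every array. Closest to F3 were Orm1 (Pearson r 0.935), Fst (0.927) and Pak6 (0.91). With dose and slide removed their r was 0.82, 0.622 and 0.695. Closest to Plaur were Cish (0.875), Ctdsp2 (0.869) and Ch25h (0.849), which kept 0.771, 0.706 and 0.704. For Plat they were Coro6 (0.86), Rab20 (0.851) and Eif3b (0.843), at 0.48, 0.77 and 0.534 once dose and slide were removed. These are descriptions over arrays that share doses and slides, and the genes were picked as the highest of many. At 162 µg, Orm1, Fst and Pak6 gave log2 fold changes of 2.22, 2.49 and 1.54.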

How the data were processed

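The authors deposited, for each of 22 two-colour Agilent arrays, scanner intensity values (median Cy5 and Cy3 signals of every spot, not background subtracted) and a table of log2 ratios whose normalization is not given in the sources used here. The correlation of that log2 table with the ratios computed here was 0.834 to 0.998 per array. Spots marked as outliers were left out, log2(Cy5/Cy3) was normalized by loess (span 0.3), and replicate spots were reduced to their median. A probe was above background when Cy5 exceeded the trimmed mean (5%) plus 3 SDs of the negative controls on 80% of the arrays of a group. limma 3.58.1 in R 4.3.3 fitted dose and slide over all 22 arrays (12 residual degrees of freedom), with Benjamini-Hochberg adjustment over 55681 probes. The brightest probe stands for a gene. Named were all members, other listed genes called at any dose, and 9 genes fixed by name. 1 gene that this rule names is not reported here, though counts over the lists include it. The members, lists and tests were chosen with earlier results of these data known. The script was tested on simulated data. The number of arrays limits the precision. Alternatives changed the background correction, normalization, channel, source table, slide term, samples, filters, fold threshold and probe, and left out each mouse.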

Additional observations from a re-analysis of the deposited data

Results flagged for a closer look

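Of 48 groups of mouse values tested with Dixon's criterion (12 probes, 4 groups), 3 held a mouse far from the others, and chance gives about 1 in 20. For Thbs1 at 54 µg, replicate 5 had the highest log2 ratio, 1.98, against 0.84 in the next mouse (n = 5). For Plau at 18 µg, replicate 3 had the highest, -0.335, against -1.10 in the next (n = 6). For Procr at 18 µg, replicate 2 had the lowest, -2.04, against -1.60 in the next (n = 6).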

How the results depend on the processing

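No direction of a called member reversed under the 18 alternatives other than single mice. Members called at 162 µg against control numbered 3, and 0 with median centring or no normalization. Under these the median log2 fold change at 162 µg over probes above background was -0.114 and -0.135. The count was 5 with slide as a random block, the replicate block or without the 2 slides that hold no control. Members called at 54 µg numbered 0, but 2 with the Cy5 channel alone, slide as a random block, the replicate block or without those slides, 4 with only the 2 groups compared, and 1 with the mean over probes or the least bright probe. At 18 µg the replicate block gave 1 (Thbs1). For 162 µg over 18 µg the count was 0 with median centring or no normalization and 2 with no fold threshold or without those slides. Other genes called at 18 µg numbered 0 with median centring or no normalization and 1 with the deposited log2 table or only the 2 groups compared. At 54 µg they numbered 0 with median centring, no normalization, the deposited log2 table or without the pair of 162 µg mice high in liver genes, 1 with no slide term and 6 with only the 2 groups compared. At 162 µg they numbered 1 with median centring and 0 with no normalization. Smaller changes of a count are not listed. By gene, Thbd was called at 162 µg in 7 of the 18 alternatives, Thbs1 in 4 and Plaur in 14. Plaur was lost with quantile normalization after loess too (adjusted p = 0.0518 in limma). The share of all genes called was not counted under any alternative. The cause was not tested.

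Leaving out each mouse gave 0 to 1 members at 18 µg, 0 to 2 at 54 µg, 2 to 5 at 162 µg, 1 to 2 for 162 over 18 µg and 0 to 0 for the other dose steps, and 0 to 3, 0 to 4 and 6 to 8 other genes at the 3 doses. Members rose to 5 at 162 µg and 2 at 54 µg without 54 µg replicate 5, to 2 at 54 µg without 54 µg replicate 3, to 1 at 18 µg without 54 µg replicate 5, and to 2 for 162 over 18 µg without 18 µg replicate 4, 162 µg replicate 4 or 162 µg replicate 5. The labels do not say whether sample numbers pair the mice, and the main fit used slide instead. Deviations from group means correlated above 0.1 in 20 of 31 same-numbered pairs (median 0.171), against 40 of 150 others (median -0.056). Same-numbered pairs on different slides had a median of 0.104. Of 22 mice, 12 were closest to one with their own number and 16 to one of their own slide. Whether the numbers pair the mice was thus not settled. In the replicate block fit F3, Plat, Plaur, Thbd and Thbs1 were called at 162 µg.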

Other observations

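Cd47, a receptor of thrombospondin 1, was chosen after its values were seen. Its log2 ratio was 0.63 to 0.83 in controls and 1.04 to 1.34 at 162 µg. It was above every control in 6 of 6 mice (3.72% of genes above background), and in 5 of 5 at 54 µg (1.51%). Its log2 fold change at 162 µg was 0.42 (SE 0.10, adjusted p = 0.02 in limma) which is 1.34-fold and under the 1.5-fold criterion. A second probe gave 0.45 (adjusted p = 0.0646). At 18 and 54 µg it was 0.08 and 0.25.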
